A study of Mus musculus with 12 samples.

Results

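The RNA of 10 genes of fatty acid synthesis and fatty acid activation was followed in mouse bone marrow-derived macrophages (BMDMs) after stimulation of the β2-adrenergic receptor. They were *Acly*, *Acaca*, *Fasn*, *Scd1*, *Scd2*, *Elovl6*, *Acsl1*, *Acsl3*, *Acsl4* and *Acsl5*, found by symbol among the 53379 genes of the count table. All 10 were among the 12386 genes with enough counts to be tested. RNA was sequenced from BMDMs of 4 C57BL/6J mice, and the macrophages of each mouse were split into 3 groups: untreated, 1 μM fenoterol for 1 h and 1 μM fenoterol for 4 h. Fenoterol is an agonist of the β2-adrenergic receptor. All BMDMs had been grown for 1 week in medium with serum and L929-conditioned medium, which stayed on the cells when fenoterol was added, so fatty acids and growth factors of the medium were present in every group.

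Fatty acids are built in the cytosol. ATP citrate lyase (*Acly*) makes acetyl-CoA from citrate, acetyl-CoA carboxylase 1 (*Acaca*) turns it into malonyl-CoA, and fatty acid synthase (*Fasn*) joins these units to palmitate, which ELOVL6 can lengthen and the stearoyl-CoA desaturases (*Scd1*, *Scd2*) can give a double bond. The long-chain acyl-CoA synthetases (ACSLs) couple free fatty acids to coenzyme A, the form in which they enter triglycerides, phospholipids or oxidation, and ACSL4 prefers arachidonic acid and related polyunsaturated fatty acids. In macrophages, ACSL1 is known to rise with inflammatory activation, and the transcription factors SREBP-1 and LXR drive the synthesis genes.

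The promoters of the 3 genes with the largest rises at 4 h of fenoterol among those in the promoter table, and of *Acsl1*, which fell, are shown as the DNA around their start sites, from 250 bases before to 50 bases after the start annotated by RefSeq on GRCm38.p6. Capitals mark matches to the 5 motifs searched on both strands: the cAMP response element TGACGTCA, its half-site TGACG, which the full element contains, the E-box core CACGTG, the CCAAT box and the sterol regulatory element TCACCCCAC.
Elovl6 (chr3:129532136-129532435, strand +, no match): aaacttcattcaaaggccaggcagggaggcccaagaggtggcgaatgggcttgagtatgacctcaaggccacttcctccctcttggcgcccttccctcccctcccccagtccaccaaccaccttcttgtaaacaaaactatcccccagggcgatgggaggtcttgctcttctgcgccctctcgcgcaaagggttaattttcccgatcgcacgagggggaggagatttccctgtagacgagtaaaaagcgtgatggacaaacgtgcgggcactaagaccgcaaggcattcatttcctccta
Acsl3 (chr1:78657575-78657874, strand +, CCAAT): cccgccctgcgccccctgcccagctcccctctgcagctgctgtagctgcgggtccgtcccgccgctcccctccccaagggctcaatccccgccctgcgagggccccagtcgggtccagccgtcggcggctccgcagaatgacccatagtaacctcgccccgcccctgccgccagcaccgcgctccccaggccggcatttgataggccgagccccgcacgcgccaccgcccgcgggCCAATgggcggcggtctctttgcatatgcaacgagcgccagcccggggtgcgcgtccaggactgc
Acsl4 (chrX:142390486-142390785, strand -, TGACG): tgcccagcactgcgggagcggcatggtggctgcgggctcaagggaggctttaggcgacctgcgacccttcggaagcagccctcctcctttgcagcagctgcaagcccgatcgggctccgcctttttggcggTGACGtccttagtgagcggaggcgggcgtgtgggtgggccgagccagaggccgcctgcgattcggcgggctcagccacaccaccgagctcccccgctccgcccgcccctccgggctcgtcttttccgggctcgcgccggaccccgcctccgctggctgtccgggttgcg
Acsl1 (chr8:46490716-46491015, strand +, second annotated start, within the gene body, CCAAT and TCACCCCAC on the opposite strand): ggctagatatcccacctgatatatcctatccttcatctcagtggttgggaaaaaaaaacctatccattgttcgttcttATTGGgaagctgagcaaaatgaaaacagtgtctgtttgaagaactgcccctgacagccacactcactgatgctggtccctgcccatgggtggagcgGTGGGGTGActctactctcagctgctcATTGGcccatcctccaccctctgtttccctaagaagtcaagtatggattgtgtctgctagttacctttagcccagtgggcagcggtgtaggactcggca
The promoter table held 8 of the 10 genes, in 9 windows, and not *Scd1* and *Scd2*. TGACGTCA was in 0 of the 9 windows, against 1.79% of all 32851 promoter windows. TGACG was in the *Acsl4* window, where it began 119 bases before the start, against 20.8% of all windows. CCAAT was in the windows of 5 genes, *Acly*, *Fasn*, *Acsl1*, *Acsl3* and *Acsl5*, against 37.4% of all windows, and in *Acsl3* it began 15 bases before the start. The second *Acsl1* window held TCACCCCAC, whose match began 76 bases before the start, against 0.551% of all windows. Its first window (chr8:46470787-46471086), at the start of the gene, held no match to any of the 5 motifs and is not shown. CACGTG was in 0 windows (7.15% of all). These are matches of letters and not sites shown to be bound.

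The libraries held 14580533 to 24153284 counts. Normalized counts are counts scaled by the TMM method to the mean library size, and fold changes and p-values are from edgeR's quasi-likelihood test with Benjamini-Hochberg adjustment over all 12386 genes, where an adjusted p under 0.05 was the threshold. SE is the standard error of a log2 fold change. *Nr4a1*, an immediate early gene of cAMP signalling, rose from 131 ± 27.9 normalized counts (SD, n = 4) to 4624 ± 289 at 1 h. The 8 macrophage markers summed to 35799 to 43491 CPM (counts scaled to the size of the library) in every library. All 6 adipocyte markers had at most 3 counts in every library, and 4 of them had no count at all. The 7 stromal markers summed to 22.2 to 68.2 CPM. In bulk RNA, fewer cells of a type and less RNA per cell cannot be told apart. The 1 h and 4 h groups were compared with the same untreated libraries.

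*Acly* had the highest level of the 10 genes per kilobase of exon in untreated BMDMs, at 43.1 ± 3.21 CPM per kilobase (SD, n = 4). *Acsl5* followed at 28.2 and *Acsl4* at 17.2 CPM per kilobase. *Scd2* was at 15.9 CPM per kilobase, and its libraries overlapped those of *Acsl4* above it and those of *Acsl3* (10.3) below it. *Fasn* was at 8.24 and *Acsl1* at 6.41 CPM per kilobase, and their libraries, from 7.04 to 11.08 and from 6.04 to 6.85, did not overlap. The lowest levels were those of *Elovl6* (1.13), *Scd1* (1.12) and *Acaca* (0.708 CPM per kilobase), and the neighbours in this order overlapped. At 4 h of fenoterol the mean of *Scd2* was 49.5 CPM per kilobase and that of *Acly* 51.7. The libraries of these 2 genes overlapped only through mouse 1, whose *Scd2* was at 79.45. In the other mice *Scd2* lay below every *Acly* library, of which the lowest was at 46.56. The levels of *Acaca* and *Acsl1* depend on the length used, because their annotated exons add up to more bases than their longest transcripts. With the longest transcript in its place, *Acaca* was at 1.27 and *Acsl1* at 11.85 CPM per kilobase in untreated BMDMs. On that scale *Acsl1* stood above *Fasn*, which was at 8.98. Of the 50-base stretches of *Acaca* 30.4% were shared with other genes, and whether its level is too low through reads lost there was not tested.

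**Figure D1:**
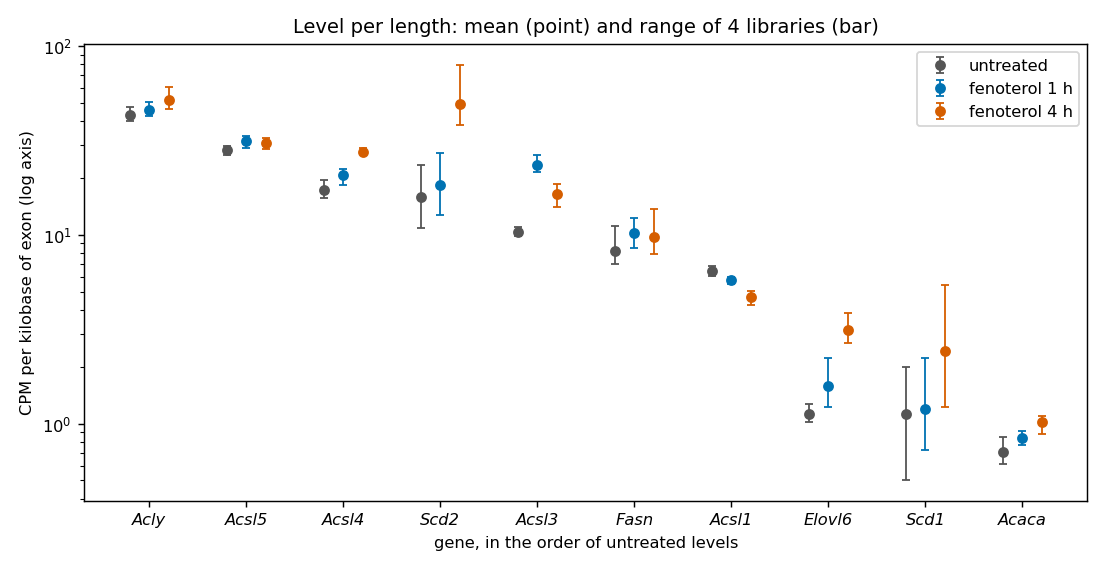
Level of each gene in CPM per kilobase of exon on a log axis, with points for the mean and bars for the range of the 4 libraries of each group. The mean of *Scd2* moved from 15.9 in untreated BMDMs to 49.5 at 4 h, with mouse 1 at 79.45 and the other mice below the range of *Acly* (mean 51.7).

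At 1 h of fenoterol, 2 of the 10 genes rose and 0 fell, against 20.1% of all genes tested that passed the threshold in either direction (10.0% higher and 10.1% lower). The 2 were *Acsl3* and *Acsl4*, a share near that of all genes. With scaling by library size only, *Acsl3* was higher and *Acsl1* lower at 1 h, and *Acsl4* did not pass. At 4 h, 6 genes rose and 1 fell, against 40.0% of all genes (19.7% higher and 20.4% lower). *Scd2*, *Elovl6*, *Acsl4*, *Acsl3*, *Acaca* and *Acly* rose and *Acsl1* fell. The median log2 fold change of the 10 genes was 0.23 at 1 h and 0.60 at 4 h, against -0.0049 and 0.0042 for all genes tested. With the mouse as a block, which compares libraries of the same animal, 7 genes passed at 1 h (6 higher, 1 lower), against 27.0% of all genes (13.3% higher and 13.7% lower), and 10 at 4 h (9 higher, 1 lower), against 47.4% (23.6% higher and 23.8% lower). Groups whose 4 libraries did not overlap at all were seen at 1 h for *Acsl3*, which was higher, and *Acsl1*, which was lower, against 23.0% of all genes (11.3% higher and 11.8% lower). At 4 h they were seen for 5 genes that were higher and for *Acsl1*, which was lower, against 37.6% of all genes (18.7% higher and 18.9% lower).

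**Figure D2:**
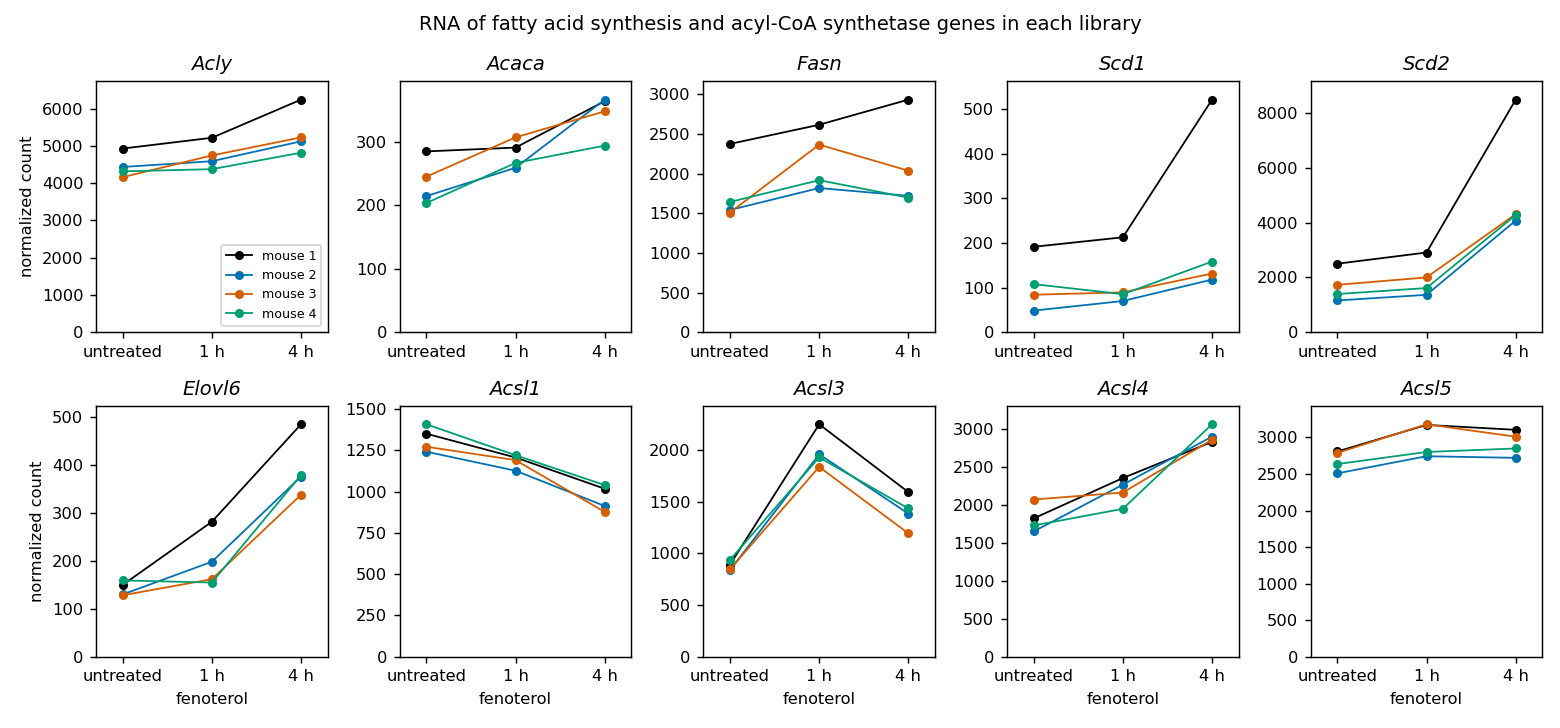
Normalized count of each gene in the 12 libraries, with 1 line per mouse and a y axis that starts at 0. The 4 lines of *Scd2* and *Elovl6* lie higher at 4 h than in untreated BMDMs, those of *Acsl3* peak at 1 h, those of *Acsl1* fall, and mouse 1 lies above the others for *Scd1* and *Scd2*.

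The largest rises at 4 h were those of the desaturase *Scd2* and the elongase *Elovl6*. *Scd2* (ENSMUSG00000025203, chr19:44293674-44306864 of GRCm38, forward strand) had 2504, 1160, 1732 and 1394 normalized counts in untreated BMDMs of mice 1 to 4. It had 2913, 1366, 2002 and 1614 at 1 h and 8507, 4084, 4319 and 4284 at 4 h. All 4 libraries at 4 h lay above all untreated libraries, while the 1 h libraries overlapped them. The rise at 4 h was 3.11-fold, a log2 fold change of 1.64 (SE 0.29, adjusted p = 0.000390). At 1 h the log2 fold change was 0.21 (SE 0.29, adjusted p = 0.693), although it was between 0.21 and 0.24 within each of the 4 mice, and with the mouse as a block the adjusted p was 0.0297. Without 1 h replicate 1 it was -0.035 (adjusted p = 0.961), and without untreated replicate 1 it was 0.46 (adjusted p = 0.337). *Scd2* was also higher at 4 h than at 1 h, by 1.42 on the log2 scale (SE 0.29, adjusted p = 0.00132).

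*Elovl6* (ENSMUSG00000041220, chr3:129532355-129638495, forward strand), the elongase whose promoter is shown above without a match, had 150, 130, 128 and 159 normalized counts in untreated BMDMs. At 1 h it had 281, 198, 162 and 155, and at 4 h 484, 376, 338 and 379. Every 4 h library exceeded every library of the other groups, and at 1 h the library of mouse 4 lay below its untreated partner. The rise at 4 h was 2.77-fold (log2 fold change 1.47, SE 0.18, adjusted p = 1.01e-05). At 1 h the log2 fold change of 0.49 (SE 0.18) had an adjusted p of 0.0759. Over its alternatives the adjusted p ran from 0.00845 with the mouse as a block to 0.261, with 0.0385 from DESeq2, 0.0459 without a filter on low counts and 0.150 from limma-voom. The log2 fold change was 0.27 without 1 h replicate 1 (adjusted p = 0.261) and 0.30 without all 3 libraries of mouse 1 (adjusted p = 0.205). Between 1 h and 4 h *Elovl6* rose further by 0.99 on the log2 scale (SE 0.17, adjusted p = 0.000404).

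*Scd1* (ENSMUSG00000037071, chr19:44394455-44407879, reverse strand), the neighbour and paralog of *Scd2*, was low and spread widely between mice. Its normalized counts were 191, 48.2, 83.8 and 108 in untreated BMDMs, 212.5, 69.8, 89.2 and 85.1 at 1 h, and 521, 118, 131 and 158 at 4 h. Mouse 1 was highest in each group, and the groups overlapped because its untreated library exceeded the 4 h libraries of the other mice. *Scd1* was higher at 4 h in 4 of 4 mice, by 0.55 to 1.44 on the log2 scale. The fitted log2 fold change of 1.07 (SE 0.51) did not pass the threshold (adjusted p = 0.114), whereas the fit with mice as blocks gave 1.00 with an adjusted p of 3.05e-05, and without a filter on low counts it was 1.076 (adjusted p = 0.0349). Without the 3 libraries of mouse 1, an alternative chosen after seeing the data, it was 0.76 (SE 0.25, adjusted p = 0.0356). Leaving out replicate 1 at 4 h alone lowered it to 0.32 (adjusted p = 0.603), and leaving out untreated replicate 1 alone raised it to 1.52 (adjusted p = 0.0473). At 1 h the log2 fold change of *Scd1* was 0.06 (adjusted p = 0.964). Per kilobase, *Scd2* exceeded *Scd1* 11.6-fold to 21.5-fold in untreated BMDMs and 14.6-fold to 31.0-fold at 4 h. These ranges overlapped, while within each of the 4 mice the ratio was higher at 4 h, at 14.6 against 11.7, 31.0 against 21.5, 29.4 against 18.5 and 24.3 against 11.6 in mice 1 to 4, which is given without a test. Of the stretches of 50 bases, the length of a read, 4.56% in *Scd1* and 3.97% in *Scd2* were shared with other genes, mainly each other and *Scd3*, which had 0 counts.

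The genes of acetyl-CoA, malonyl-CoA and palmitate synthesis had log2 fold changes of 0.24 to 0.53 at 4 h. *Acaca* (ENSMUSG00000020532, chr11:84129672-84401651, forward strand) had 285, 214, 245 and 203 normalized counts in untreated BMDMs, 291, 259, 307 and 266 at 1 h, and 364, 366, 348 and 294 at 4 h. The 4 h libraries all exceeded the untreated ones, a 1.44-fold rise (log2 fold change 0.53, SE 0.11, adjusted p = 0.00187). The value at 1 h, 0.24, had an adjusted p of 0.178. Of its 50-base stretches 30.4% were shared with other genes, mostly with the pseudogene *Gm5182*, which had 24 counts in all libraries together.

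*Acly* (ENSMUSG00000020917, chr11:100476353-100528000, reverse strand) had 4927, 4433, 4159 and 4315 normalized counts in untreated BMDMs, 5216, 4587, 4742 and 4374 at 1 h, and 6240, 5121, 5226 and 4816 at 4 h. It was higher at 4 h in all 4 mice, but the lowest 4 h library lay below the highest untreated one. The rise was 1.20-fold (log2 fold change 0.26, SE 0.08, adjusted p = 0.0192). This call was lost without untreated replicate 3 (adjusted p = 0.0709), untreated replicate 4 (0.0626) or replicate 1 at 4 h (0.0638), and over all of its alternatives the adjusted p ran from 0.000159 to 0.0709.

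*Fasn* (ENSMUSG00000025153, chr11:120805846-120824547, reverse strand) did not pass the threshold at either time. Its normalized counts were 2376, 1542, 1510 and 1644 in untreated BMDMs, 2618, 1819, 2367 and 1918 at 1 h, and 2935, 1721, 2038 and 1698 at 4 h. The groups overlapped, and mouse 1 was highest in each. The log2 fold change was 0.30 (SE 0.19, adjusted p = 0.308) at 1 h and 0.24 (SE 0.19, adjusted p = 0.328) at 4 h. Within the mice it was 0.14 to 0.65 at 1 h and 0.05 to 0.43 at 4 h, above 0 in 4 of 4 at each time, and with the mouse as a block the adjusted p was 0.00368 at 1 h and 0.0132 at 4 h. Without the 3 libraries of mouse 1 the value at 1 h was 0.38 (adjusted p = 0.0341) and that at 4 h 0.22 (adjusted p = 0.140), while leaving out replicate 1 at 4 h alone gave 0.04 at 4 h (adjusted p = 0.881). Leaving out untreated replicate 1 alone gave 0.48 at 1 h (adjusted p = 0.0864) and 0.42 at 4 h (adjusted p = 0.0814).

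**Figure D3:**
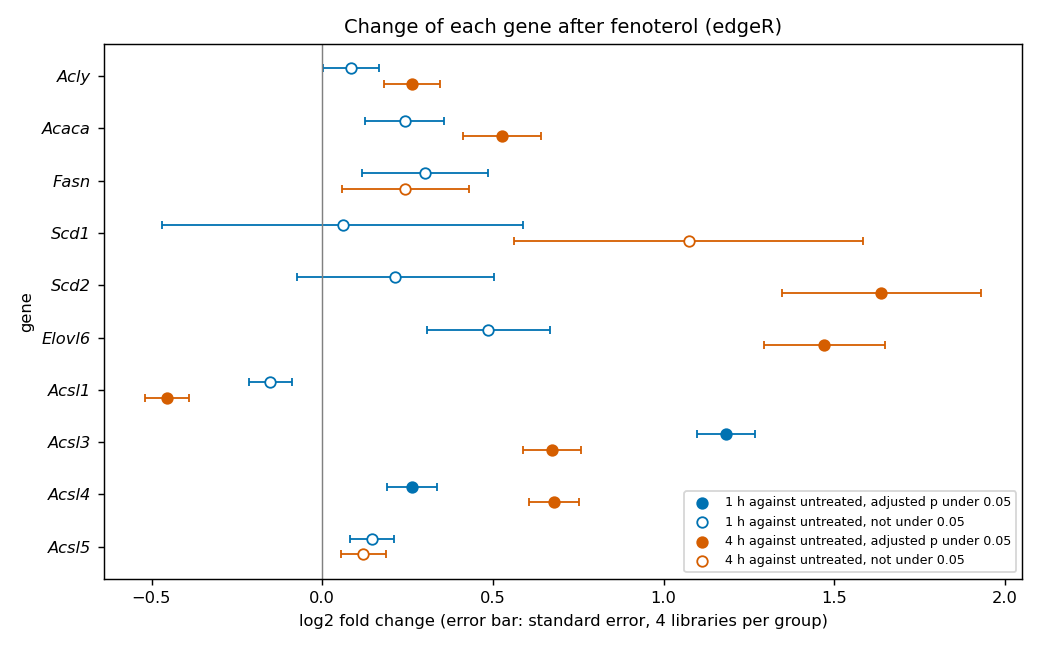
Log2 fold change of each gene after 1 h and 4 h of fenoterol against the same untreated libraries, with standard errors, from edgeR without the mouse as a block. Filled points have an adjusted p under 0.05: 2 genes at 1 h and 7 at 4 h, of which *Acsl1* alone lies below 0.

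The acyl-CoA synthetase genes each followed a different course. *Acsl3* (ENSMUSG00000032883, chr1:78657825-78707743, forward strand), whose product sits on the endoplasmic reticulum and on lipid droplets, had the largest log2 fold change of the 10 genes at 1 h. It had 891, 838, 846 and 937 normalized counts in untreated BMDMs, 2248, 1958, 1836 and 1928 at 1 h, and 1592, 1384, 1193 and 1434 at 4 h. The 3 groups did not overlap, with 1 h highest and 4 h in between. The rise was 2.27-fold at 1 h (log2 fold change 1.18, SE 0.08, adjusted p = 8.92e-08) and 1.59-fold at 4 h (0.67, SE 0.08, adjusted p = 1.63e-05). By p-value it ranked 201 of the genes tested at 1 h. From 1 h to 4 h it fell by 0.51 on the log2 scale (SE 0.08, adjusted p = 0.000225), in 4 of 4 mice. *Utp14b*, a gene on the same strand that covers 5.6% of the exon bases of *Acsl3*, rose as well, by 1.31 on the log2 scale at 1 h (adjusted p = 3.99e-06) and by 0.64 at 4 h (adjusted p = 0.00144). Its 4674 counts in all libraries compare with 17076 of *Acsl3*, and whether reads moved between the 2 genes was not tested.

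*Acsl4* (ENSMUSG00000031278, chrX:142317993-142390535, reverse strand) rose in steps. Its normalized counts were 1824, 1652, 2073 and 1731 in untreated BMDMs, 2356, 2269, 2165 and 1950 at 1 h, and 2833, 2902, 2861 and 3065 at 4 h. The 4 h libraries lay above all others, and the 1 h libraries overlapped the untreated ones through mouse 3 and mouse 4. The log2 fold change was 0.26 (SE 0.07, adjusted p = 0.0198) at 1 h and 0.68 (SE 0.07, adjusted p = 3.52e-06), a 1.60-fold rise, at 4 h. The call at 1 h was lost with scaling by library size only (0.19, adjusted p = 0.0717) and without untreated replicate 2 (adjusted p = 0.0678), untreated replicate 4 (0.0592), 1 h replicate 1 (0.0666) or 1 h replicate 2 (0.0556), or without all 3 libraries of mouse 1 (0.137), and with all alternatives counted the adjusted p ran from 0.00326 to 0.137. The step from 1 h to 4 h was 0.42 on the log2 scale (SE 0.07, adjusted p = 0.000418).

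*Acsl1* (ENSMUSG00000018796, chr8:46471037-46536051, forward strand) was the gene that fell. It had 1350, 1241, 1271 and 1407 normalized counts in untreated BMDMs, 1206, 1126, 1190 and 1220 at 1 h, and 1017, 913, 877 and 1039 at 4 h. The 3 groups did not overlap. Relative to untreated BMDMs it fell by 0.45 on the log2 scale at 4 h (SE 0.06, adjusted p = 4.33e-05), to 0.730 of the untreated level. At 1 h the log2 fold change was -0.15 (SE 0.06, adjusted p = 0.114), lower in 4 of 4 mice. With the mouse as a block the adjusted p was 0.0376, and scaled to library size alone it was -0.22 (adjusted p = 0.0259). Between 1 h and 4 h it fell by 0.30 (SE 0.06, adjusted p = 0.00171).

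*Acsl5* (ENSMUSG00000024981, chr19:55251938-55297720, forward strand), a synthetase of the endoplasmic reticulum and the outer mitochondrial membrane, had 2808, 2509, 2788 and 2636 normalized counts in untreated BMDMs. It had 3171, 2743, 3180 and 2801 at 1 h and 3104, 2721, 3010 and 2849 at 4 h, with overlap between all groups. Its log2 fold change was 0.15 (SE 0.06, adjusted p = 0.140) at 1 h and 0.12 (SE 0.06, adjusted p = 0.160) at 4 h. It was above 0 in 4 of 4 mice at each time, and with the mouse as a block the adjusted p was 0.0180 at 1 h and 0.0284 at 4 h. *Zdhhc6* on the opposite strand covers 8.3% of its exon bases and had 9689 counts against 34468 of *Acsl5*, and it rose by 0.19 at 1 h (adjusted p = 0.0287) and by 0.42 at 4 h (adjusted p = 4.06e-05). Since the strand option of the counting is not given in the sources used here, reads of both could be mixed there.

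These courses changed the make-up of the ACSL RNA. Per kilobase, *Acsl5* made up 45.4% ± 0.67 (SD, n = 4) of the summed ACSL level in untreated BMDMs, then 38.5% ± 1.90 at 1 h and 38.7% ± 1.91 at 4 h. The share of *Acsl3* went from 16.6% ± 1.05 to 28.8% ± 1.58 and 20.7% ± 1.80. *Acsl4* held 27.7% ± 1.69 of the sum in untreated BMDMs, then 25.5% ± 1.30 at 1 h and 34.8% ± 1.70 at 4 h, and at 4 h its 4 libraries (32.3% to 35.9%) lay above those of the other groups. *Acsl1* went from 10.3% ± 0.64 to 7.15% ± 0.46 and 5.90% ± 0.30, with no overlap between the groups. With the longest transcript as length its share was 16.2%, then 11.5% and 9.59%, and in untreated BMDMs its mean was then above that of *Acsl3* (15.5%), with overlapping libraries. *Acsl6*, the brain-enriched member, had 1 count in all 12 libraries. The summed level was 62.1 ± 3.12 CPM per kilobase in untreated BMDMs, then 80.9 ± 4.93 at 1 h and 79.3 ± 3.07 at 4 h, and both treated groups lay above all untreated libraries. The shares are descriptions without a test.

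**Figure D4:**
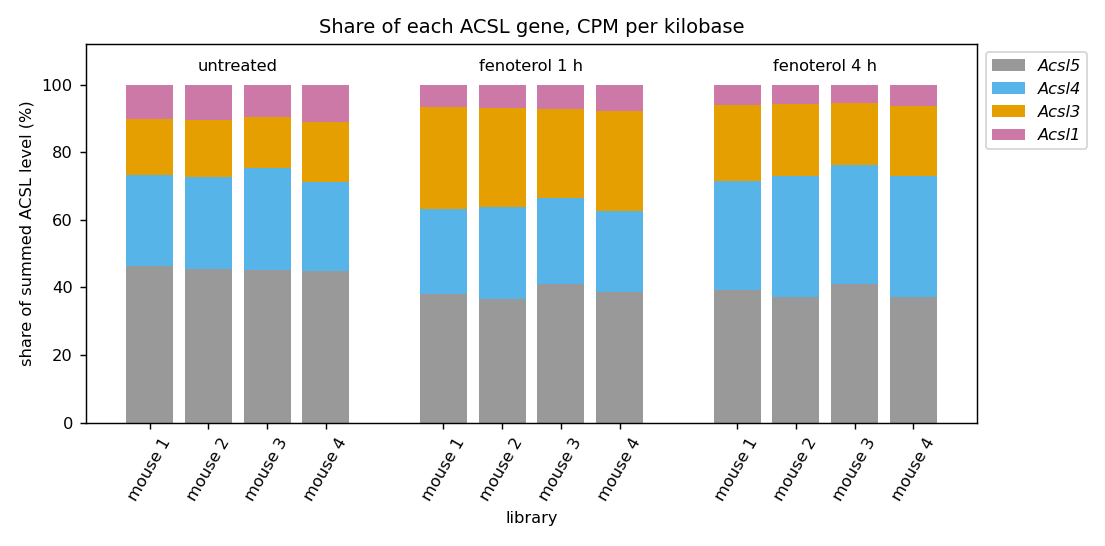
Share of *Acsl1*, *Acsl3*, *Acsl4* and *Acsl5* in their summed level (CPM per kilobase of exon) in each of the 12 libraries. The *Acsl3* band is widest at 1 h (28.8% on average), the *Acsl4* band at 4 h (34.8%), and the *Acsl1* band narrows from 10.3% to 5.90% (from 16.2% to 9.59% with the longest transcript as length).

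Between the 2 fenoterol times, 3 genes rose (*Scd2*, *Elovl6*, *Acsl4*) and 2 fell (*Acsl3*, *Acsl1*), against 38.5% of all genes (18.7% higher and 19.8% lower). With the mouse as a block 8 passed, 6 higher and 2 lower, against 46.6% of all genes (23.0% higher and 23.6% lower). The libraries of the 2 times did not overlap for the same 5 genes that passed without the block, against 35.9% of all genes (17.7% higher and 18.2% lower). The 3 added with the block were *Acly* (adjusted p = 0.00481), *Acaca* (0.0127) and *Scd1* (7.74e-05). Without the block their log2 fold changes were 0.18 (adjusted p = 0.103), 0.29 (0.0602) and 1.01 (0.137), and without replicate 1 at 4 h that of *Acly* was 0.10 (0.336) and that of *Scd1* 0.25 (0.685). Without replicate 1 at 1 h *Scd1* was 1.502 (0.0441), and with library size only *Acly* was 0.27 (0.0117) and *Acaca* 0.38 (0.0133). *Acaca* also passed with only the 2 groups compared (0.0433), without untreated replicate 1 (0.0410) and without replicate 4 at 4 h (0.0291). Without the 3 libraries of mouse 1, *Scd1* was 0.74 (0.0404). *Fasn* and *Acsl5* had log2 fold changes of -0.06 (adjusted p = 0.844) and -0.03 (adjusted p = 0.793).

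The mice differed in these genes within each group. Over the 10 genes and 3 groups, mouse 1 was the highest in 20 of 30 cases and mouse 2 the lowest in 15. *Acly*, *Fasn*, *Scd1* and *Scd2* were highest in mouse 1 in every group. Its *Scd1* exceeded the mean of the other mice 2.39-fold in untreated BMDMs, 2.61-fold at 1 h and 3.84-fold at 4 h, and its *Scd2* did so 1.75-fold, 1.75-fold and 2.01-fold. The sum of the stromal markers, of which 4 of 7 were tested and *Lum* had no count, was also highest in mouse 1, at 68.2 CPM in untreated BMDMs against 22.2 to 54.7 in the others, 61.5 against 34.9 to 59.3 at 1 h, and 65.2 against at most 49.7 at 4 h. The sum of 9 neutrophil and progenitor markers followed the same order at its ends, at 51.7 CPM in mouse 1 and 26.2 in mouse 4 in untreated BMDMs. The part of these cells in the differences between mice was not tested. Without the 3 libraries of mouse 1, 2 of the 10 genes passed at 1 h (*Acsl3* and *Fasn*), 8 at 4 h and 6 between the times, against 14.0%, 33.5% and 31.7% of the 12420 genes tested in that fit. *Scd2* was then 1.56 (adjusted p = 1.50e-05) and *Elovl6* 1.39 (adjusted p = 1.53e-05) higher at 4 h on the log2 scale, so both rises were present in the other 3 mice.

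The genes whose course was closest to *Scd2* over the 12 libraries, by the root mean square difference of log2 values centred on each gene, were *Cdk15* (0.26), *Fdps* (0.27) and *Lrp8* (0.29) among 12385 genes. *Elovl6* was closest to *Procr* (0.18), *Agpat4* (0.21) and *Sqle* (0.22), and *Acsl3* to *Mphosph10*, *Txndc11* and *Tex2* (each 0.13). Among the 10 genes themselves, *Elovl6* and *Scd2* were nearest to each other (0.37) and *Acly* and *Acsl5* were the closest pair (0.12).

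Other genes of the pathway, 93 in 4 lists, moved in both directions. Of these 72 were tested, and 16 passed at 1 h (8 higher, 8 lower, 22.2%) and 37 at 4 h (21 higher, 16 lower, 51.4%), beside 20.1% and 40.0% of all genes. The median log2 fold change of the 72 was 0.02 at 1 h and 0.05 at 4 h. Among 24 genes that control fatty acid synthesis, 9 passed at 1 h (4 higher, 5 lower, 37.5%) and 15 at 4 h (9 higher, 6 lower, 62.5%). *Trib1*, a pseudokinase that lowers hepatic lipogenesis, rose from 273 to 1961 normalized counts at 1 h and was at 943 at 4 h, log2 fold changes of 2.86 (adjusted p = 6.74e-10) and 1.80 (adjusted p = 5.82e-08). *Srebf1*, which encodes the transcription factor SREBP-1, rose by 0.64 at 4 h (adjusted p = 1.19e-05) and was at 0.16 at 1 h (adjusted p = 0.180). *Stk11*, the kinase upstream of AMPK, rose by 0.68 at 1 h and 0.40 at 4 h. *Mid1ip1*, whose product helps acetyl-CoA carboxylase to polymerize, fell by 0.73 at 4 h (adjusted p = 4.80e-07).

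Of 14 tested genes that supply acetyl-CoA, malonyl-CoA and NADPH, 2 rose and 3 fell at 1 h (35.7%), and 2 rose and 4 fell at 4 h (42.9%), beside 20.1% and 40.0% of all genes. *Acss1*, the mitochondrial acetyl-CoA synthetase, was higher by 0.76 on the log2 scale at 1 h (adjusted p = 5.03e-05) and was at -0.04 at 4 h (adjusted p = 0.799). The cytosolic *Acss2* was at -0.22 at 1 h (adjusted p = 0.426) and fell by 0.71 at 4 h (adjusted p = 0.00405). *Idh1*, which yields cytosolic NADPH, fell by 0.37 at 1 h (adjusted p = 0.00911) and by 0.44 at 4 h (adjusted p = 0.00142). Of 13 genes of elongation and desaturation, 2 rose at 1 h (15.4%), and 3 rose and 2 fell at 4 h (38.5%), shares near those of all genes. *Elovl5*, an elongase of polyunsaturated fatty acids, rose by 0.38 at 1 h (adjusted p = 0.000178) and by 0.15 at 4 h (adjusted p = 0.0433), and the 3-hydroxyacyl-CoA dehydratase *Hacd4* fell by 0.92 at 4 h (adjusted p = 1.48e-07). *Fads2*, the delta-6 desaturase, had a log2 fold change of 0.54 at 4 h (SE 0.28, adjusted p = 0.151), and with the mouse as a block the adjusted p was 5.06e-05. Between the times it was 0.41 (adjusted p = 0.284, and 0.000893 with the block).

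Among 21 tested genes of other acyl-CoA synthetases and acyl-CoA handling, 0 passed at 1 h with edgeR's quasi-likelihood test, as with DESeq2 and limma-voom, and 0 had an unadjusted p under 0.05, whereas 1 passed with the mouse as a block, the fatty acid-binding protein *Fabp5* (log2 fold change 0.31, adjusted p = 0.282 without the block and 0.000607 with it). At 4 h *Fabp5* was at 0.19 (adjusted p = 0.439, and 0.0192 with the block). At 4 h, 7 rose and 4 fell (52.4%), beside 40.0% of all genes. *Acsf2*, a mitochondrial acyl-CoA synthetase, rose from 278 to 709 normalized counts (log2 fold change 1.35, adjusted p = 2.27e-05), and *Fabp4*, another fatty acid-binding protein, fell from 380 to 205 (log2 fold change -0.89, adjusted p = 0.000185). *Acsbg1* had 1 to 6 counts in the untreated libraries and 28, 37, 69 and 54 counts at 4 h (adjusted p = 2.85e-05), so the size of its rise rests on few untreated reads.

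**Figure D5:**
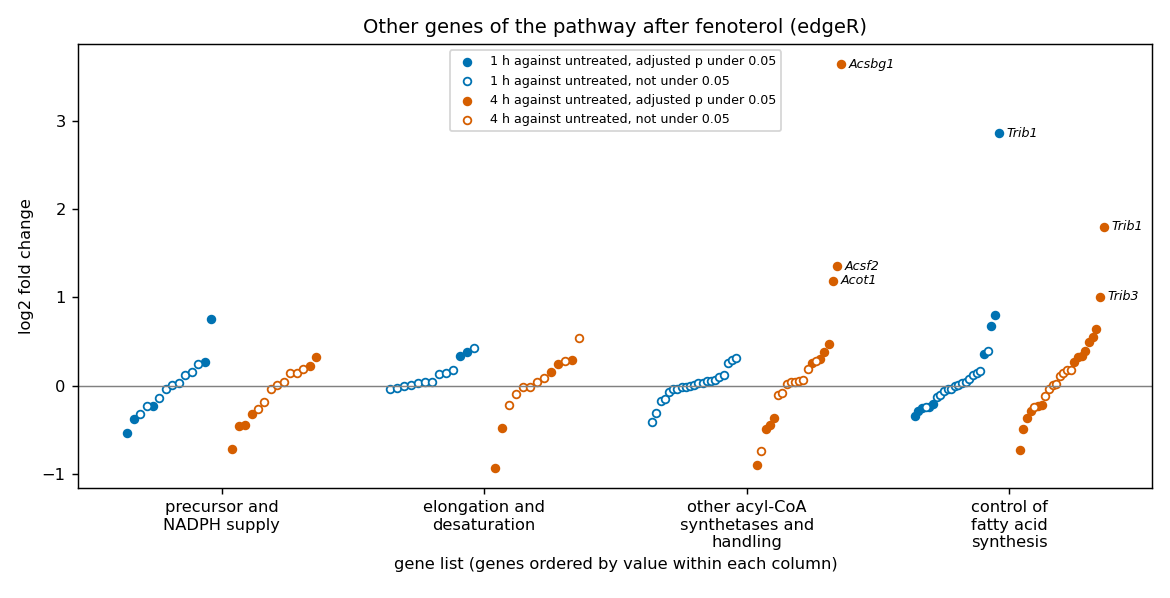
Log2 fold changes at 1 h and 4 h of the 72 tested genes in 4 lists of the pathway, filled where the adjusted p is under 0.05 and named where the change is at least 1 on the log2 scale in either direction. The list of other acyl-CoA synthetases and acyl-CoA handling has 0 filled points at 1 h and 11 at 4 h.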

How the data were processed

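RNA was sequenced from 12 libraries, 3 groups of 4, and cells of each mouse are in all 3 groups per the labels. Per the paper's methods, stranded mRNA libraries were read as 50-base single reads in 1 lane. The authors mapped them to GRCm38 with TopHat (TopHat2 2.0.11 in the submitters' processing notes) and deposited raw read counts per gene from HTSeq-count (HTSeq 0.8.0). The strand option and annotation release are not given in the sources used here.

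Symbols and coordinates are from GENCODE M21, which matched 53274 of 53379 genes (the rest held 0.0046% of counts). Genes were filtered with filterByExpr, scaled by TMM (factors 0.953 to 1.04) and tested with edgeR 4.0.16 in R 4.3.3 in 1 quasi-likelihood fit with a mean per group, with p-values adjusted over 12386 genes. Totals were 14580533 to 24153284 counts. The member with the fewest counts in a library, *Scd1*, had 36, a counting error of 16.7%. Replicates differed beyond counting error (chi-square per degree of freedom 9.13 to 18.7). Libraries of the same mouse deviated together from their group means (Pearson's r 0.290 to 0.561 in 12 pairs across genes, against -0.304 to 0.0912 in 36 pairs of different mice), so the mouse as a block was an alternative whose value is given where it changes the call of a named gene. Where values of the same mouse are positive, centring on group means makes those of different mice negative on average, so the latter are no separate evidence. The p-values without the block measure changes against the spread between 4 mice. Those with the block measure them against the spread of the changes within mice.

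Levels between genes are CPM per kilobase of the union of exons. On simulated counts of the 1 h comparison, edgeR recovered 177 of 200 changed genes (88.5%) with 7 false calls among 12246 genes. This share is for all 200 together, and recovery at the fold changes of the 10 genes was not tested. The alternatives were DESeq2 1.42.0, limma-voom (limma 3.58.1), RLE scaling, library size only, no filter, a minimum mean count of 50, a fit of just the groups compared, mice as blocks, a threshold of 0.01, each library left out, the longest transcript as length, and, chosen after seeing the data, all libraries of mouse 1 left out. The 10 genes and all lists were chosen with earlier results of these data known. All 10 genes are named, and from each list at most the 3 largest changes in each direction that passed the threshold, together with *Fads2* and *Fabp5*, which were chosen after their values were seen.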

Additional observations from a re-analysis of the deposited data

Results flagged for a closer look

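In 4 of the 30 groups of 4 libraries examined for the 10 genes, 1 library lay far from the other 3 by Dixon's ratio, where chance gives 1.5 (1 in 20). All 4 were libraries of mouse 1. *Fasn* in untreated BMDMs had 2376 normalized counts in mouse 1 against 1510 to 1644 in the others (ratio 0.846). *Scd1* had 212.5 at 1 h against 69.8 to 89.2 (ratio 0.864) and 521 at 4 h against 118 to 158 (ratio 0.900). *Scd2* at 4 h had 8507 against 4084 to 4319 (ratio 0.947). The stromal marker sum was highest in mouse 1 in each group as well (61.5 to 68.2 CPM), and its part was not tested.

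For 5 genes the effect of fenoterol differed between the 2 times, by edgeR's quasi-likelihood test of 4 h against 1 h. The log2 difference was 1.42 for *Scd2* (adjusted p = 0.00132), 0.99 for *Elovl6* (adjusted p = 0.000404) and 0.42 for *Acsl4* (adjusted p = 0.000418), each higher at 4 h in 4 of 4 mice. It was -0.30 for *Acsl1* (adjusted p = 0.00171) and -0.51 for *Acsl3* (adjusted p = 0.000225), each lower in 4 of 4 mice.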

How the results depend on the processing

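Of 630 log2 fold changes of the 10 genes under 21 alternatives, 582 kept their direction and their side of the threshold, 27 newly passed it, 9 no longer passed it and 12 changed sign. These 12 belong to comparisons of *Scd1*, *Scd2*, *Fasn* and *Acsl5* that had not passed. Library size only, a scaling that also moved the median of all genes, gave 3 of the 12, 3 of the 27 and 1 of the 9. *Scd1* at 1 h was -0.0095 with library size only and -0.0438 to -0.4253 without untreated replicate 2 (-0.1647), untreated replicate 3 or 1 h replicate 1 (highest 0.502, without untreated replicate 1), and *Scd2* ran from -0.035 without 1 h replicate 1 to 0.4641 without untreated replicate 1. Between the times, *Fasn* was 0.0334 and *Acsl5* 0.0662 with library size only, 0.0424 and 0.0062 without 1 h replicate 1, and 0.0263 and 0.0068 without 4 h replicate 2, and *Fasn* was 0.0328 without 4 h replicate 4. The lowest values with 1 library left out were -0.2616 for *Fasn* and -0.0631 for *Acsl5*.

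With the mouse as a block, 7 genes passed at 1 h in place of 2 (27.0% of all genes in place of 20.1%), 10 at 4 h in place of 7 (47.4% in place of 40.0%) and 8 between the times in place of 5 (46.6% in place of 38.5%). It changed no call of these genes beyond those given with the results. With an adjusted p under 0.01, 1 of them and 10 of the other pathway genes passed at 1 h, beside 12.8% of all genes tested. With single libraries left out, 1 to 3 passed at 1 h, 6 to 8 at 4 h and 5 to 6 between the times, and 12 to 17, 30 to 39 and 25 to 34 of the other pathway genes, beside 16.7% to 19.8%, 35.6% to 39.7% and 33.5% to 37.8% of all genes tested. With the longest transcript as length, the share of *Acsl1* in the ACSL sum was 16.2% in untreated BMDMs, then 11.5% at 1 h and 9.59% at 4 h, that of *Acsl4* 24.04%, 22.6% and 31.3%, and in untreated BMDMs that of *Acsl3* 15.5% and of *Acsl5* 44.2%.

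With library size only, the median of all genes was -0.07 at 1 h and 0.10 between the times, and 949 genes were called higher and 1969 lower at 1 h (1242 and 1251 with TMM), and 3503 and 1830 between the times (2320 and 2453 with TMM). Depth limits *Scd1*, *Elovl6* and *Acaca* most. The cause of these shifts was not tested.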
